A study of Mus musculus with 9 samples.

Results

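The genes described here belong to families of amino acid transporters of the plasma membrane and of internal membranes. These are the solute carrier families SLC1, SLC3, SLC6, SLC7, SLC36, SLC38 and SLC43. They also hold carriers of other substrates, such as monoamines, creatine, betaine and purine bases, and those genes are counted here too. Members were chosen by a rule on gene symbols in the array's annotation, with earlier results of these data known. The cystine transporter gene Slc7a11 was left out of the count, and a gene with several probe sets was read from the brightest, by its mean over all 9 arrays. This gave 59 of the 19938 genes with a probe set of their own. Marrow of Balb/c mice was pooled, and its low-density fraction, which holds blood progenitors, was expanded for 4 days with 2 growth factors, stem cell factor and FLT3 ligand (100 ng/mL). Interleukin 5 (IL-5), the cytokine that drives eosinophil formation, was then given. Total RNA was hybridised to 3 arrays per time, from cells before IL-5 and from cells that had 4 or 10 days of it. All 3 groups went through the expansion step, and a matched culture lacking IL-5 is not analysed here, so IL-5 and time in culture cannot be told apart. Whether the 3 arrays of a group stand for separate cultures or mice is not stated in the labels, and the p-values therefore measure only the spread of these arrays, which may be technical.

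Cells take up amino acids through carriers that differ in substrate and driving force. Sodium-coupled carriers of the SLC1, SLC6 and SLC38 families load the cell, and exchangers of the SLC7 family trade 1 amino acid for another. The exchangers reach the membrane as heterodimers, in which a glycoprotein heavy chain from the SLC3 family (4F2hc, also called CD98, from Slc3a2, or rBAT, from Slc3a1) is bound to a light chain that carries the substrate. Dividing blood progenitors need leucine, glutamine and arginine for growth, and leucine uptake feeds the growth kinase mTORC1.

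All values are log2 signals, and a change is the later minus the earlier mean. A gene was called as risen or fallen when its adjusted p was under 0.05 (limma, Benjamini-Hochberg over all 19938 genes) and its change reached 2-fold. Array medians lay between 5.67 and 5.75, and arrays of a group correlated at 0.991 to 0.996 across genes. All 8 eosinophil markers (Epx, Prg2, Prg3, Ear6, Ccr3, Siglecf, Il5ra and Alox15) rose at both days. Their mean level per array went from 7.14 to 7.35 before IL-5 to 10.25 to 10.39 at day 4 and 12.36 to 12.40 at day 10. The cultures were mixed: 9 of 10 monocyte and macrophage, 5 of 9 dendritic cell and 4 of 10 neutrophil markers rose at day 4, and 7 of 9 erythroid, 7 of 8 B cell and 5 of 8 progenitor markers fell. In such bulk samples fewer cells of a type and less RNA per cell cannot be told apart.

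Genes of the family were called in both directions. Of the 59 genes, 11 were called in at least 1 comparison and 48 in none. The share of all genes called in at least 1 comparison was not counted, so these 2 numbers have no background beside them. At day 4 against before IL-5, 3 rose (5.08% of the family, against 3.42% of all genes) and 2 fell (3.39%, against 2.11% of all genes). At day 10 against before IL-5, 4 rose (6.78%, against 4.83%) and 6 fell (10.2%, against 9.40%). Between the days 1 rose and 1 fell, 1.69% each, against 2.44% and 3.98% of all genes. These shares lie near those of all genes, and nothing particular to the family is read from them. Its median change was -0.10 at day 4 and -0.04 at day 10 against before IL-5, beside -0.11 and -0.07 for all genes. Of the 59, 15 had a mean over the 9 arrays under 4.66, the lower quartile of all genes, and 0 of the 11 called genes did. The arrays of the groups compared did not overlap for 27 members at day 4 (45.8%, against 43.6% of all genes), for 24 at day 10 (40.7%, against 49.7%), and for 28 between the days (47.5%, against 44.2%). On adjusted p alone, with no fold limit, 7 members stood higher at day 4 (11.9%, against 11.5% of all genes) and 9 lower (15.3%, against 20.0%). At day 10 against before IL-5 these were 9 (15.3%, against 14.8%) and 13 (22.0%, against 27.6%), and between the days 10 (16.9%, against 11.7%) and 9 (15.3%, against 20.2%).

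**Figure D1:**
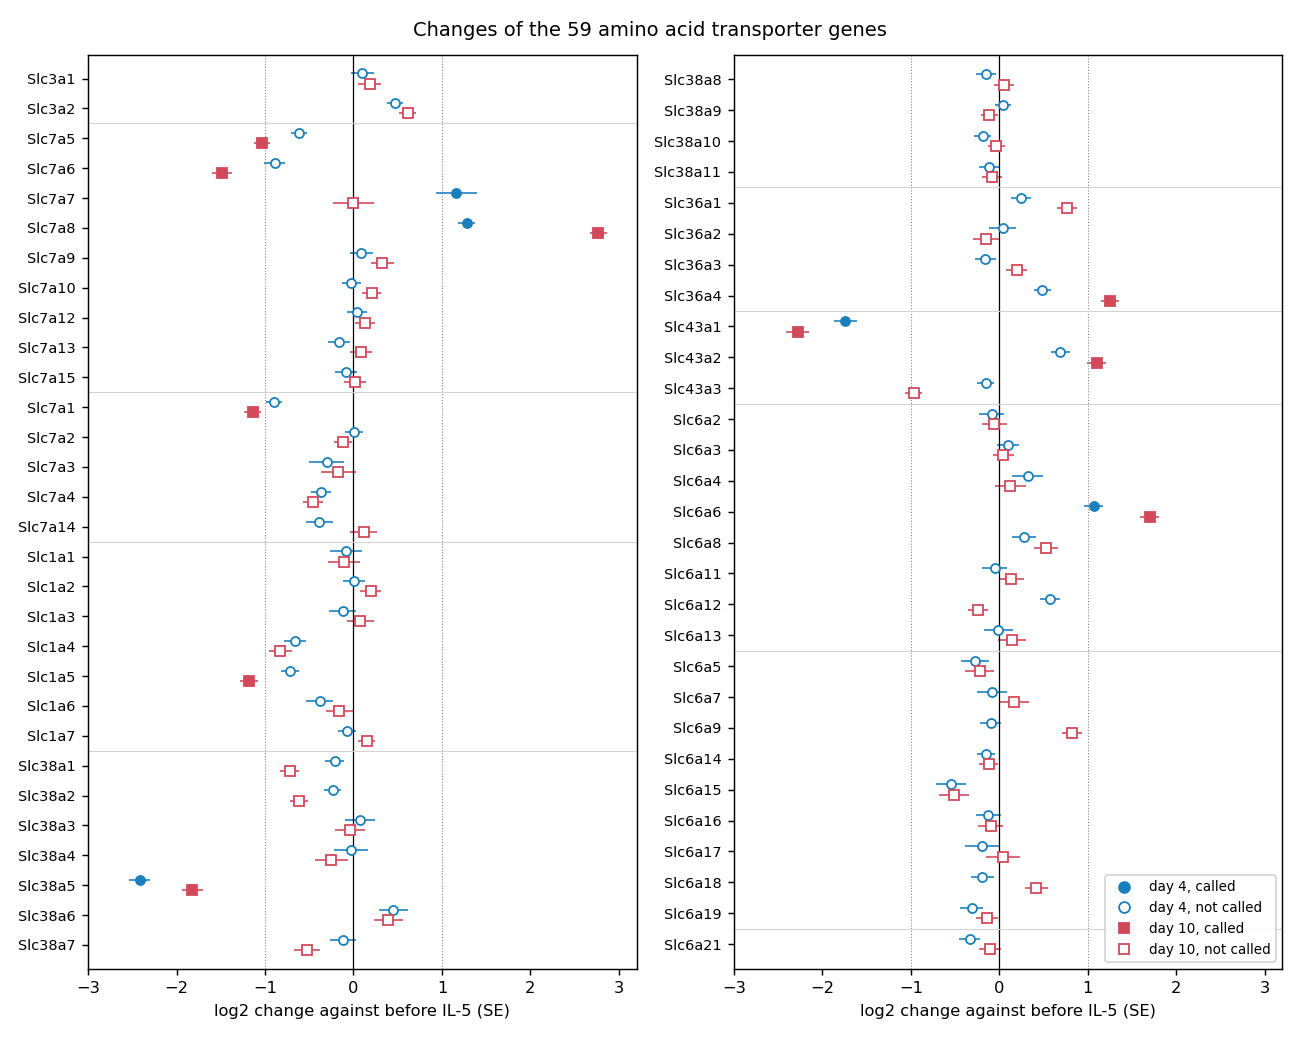
Changes of all 59 genes against the cells before IL-5, on a log2 scale with standard errors, for day 4 (circles) and day 10 (squares). Filled points were called, dotted lines mark a 2-fold change, and genes are ordered by family, with Slc7a8 at 2.77 and Slc43a1 at -2.28 the outermost points of day 10.

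The heavy chain gene of the exchangers stood somewhat higher after IL-5, under the 2-fold limit, while its light chain partners went different ways. Slc3a2 stood at 10.52, 10.55 and 10.62 before IL-5, at 10.98, 11.10 and 11.01 at day 4, and at 11.10, 11.22 and 11.20 at day 10. All later arrays lay above all arrays before IL-5, and day 4 and day 10 lay close together. The difference was 0.47 ± 0.09 (SE) at day 4 (adjusted p = 0.00158) and 0.61 ± 0.09 at day 10 (adjusted p = 9.74e-05). The other heavy chain gene, Slc3a1, which encodes the rBAT subunit of kidney and gut, lay in the dim range at 4.22 to 4.70 and differed by 0.18 at day 10 (adjusted p = 0.305).

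Slc7a8 showed the largest rise of the 59 genes. It encodes LAT2, a light chain that exchanges a broad range of neutral amino acids, small ones included. Its signals were 7.58, 7.77 and 7.61 before IL-5, then 8.97, 8.85 and 8.98 at day 4, and 10.45, 10.44 and 10.37 at day 10. The 3 groups did not overlap, and each later group lay higher. The rise was 1.28 ± 0.10 (SE) by day 4 (adjusted p = 7.36e-07) and 2.77 ± 0.10 by day 10 (adjusted p = 2.13e-10), a 6.81-fold change in signal. The step between the days, 1.49 ± 0.10 (adjusted p = 1.36e-07), passed on its own and was the 1 rise among the 59 in that comparison.

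Slc7a5 and Slc7a6 moved in the opposite direction. Slc7a5 encodes LAT1, the exchanger of large neutral amino acids such as leucine that is typical of dividing cells. Its arrays read 9.63, 9.69 and 9.68 before IL-5, 9.01, 9.07 and 9.06 at day 4, and 8.62, 8.72 and 8.55 at day 10. The groups were apart at each step, with day 10 the lowest. The difference was -0.62 ± 0.09 (SE) at day 4 (adjusted p = 1.91e-04, under 2-fold) and the fall reached -1.04 ± 0.09 at day 10 (adjusted p = 7.93e-07). That fall lay at the 2-fold limit: it was -0.99 without day 10 replicate 3 and -0.92 after quantile normalization, and then not called.

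Slc7a6, which encodes y+LAT2, an exchanger of cationic against neutral amino acids, gave 9.44, 9.50 and 9.59 before IL-5. At day 4 it gave 8.50, 8.74 and 8.63, and at day 10 7.93, 8.25 and 7.88. It fell by 1.49 ± 0.12 (SE) by day 10 (adjusted p = 2.8e-07), with day 4 between the other groups at -0.89 (adjusted p = 7.66e-05, under 2-fold). Its close relative Slc7a7 did not follow it.

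Slc7a7 encodes y+LAT1, which also exchanges cationic for neutral amino acids and is known from macrophages and gut and kidney epithelium. Its signals were 6.35, 6.45 and 6.39 before IL-5, 7.64, 7.69 and 7.36 at day 4, and 6.24, 5.87 and 7.08 at day 10. Day 4 stood above both other groups, and the day 10 arrays were spread on both sides of the level before IL-5. The rise at day 4 was 1.16 ± 0.23 (SE, adjusted p = 0.0016) and the fall from day 4 to day 10 was -1.16 ± 0.23 (adjusted p = 0.00155), the 1 fall of the family between the days. Without day 10 replicate 2 the fall was -0.90 and not called, and without day 10 replicate 3 it was -1.51. At day 10 the mean was 6.40, as before IL-5 (adjusted p = 0.998), and the difference was -0.34 without day 10 replicate 3.

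The mean levels of markers of 3 other myeloid cell types were also higher at day 4 than before IL-5. The mean level of the monocyte and macrophage markers, 10 genes (Csf1r, Adgre1, Mrc1, C1qa, C1qb, C1qc, Fcgr1, Ccr2, Gpnmb and Cd68), was 7.29 to 7.45 before IL-5 and 9.93 to 10.04 at day 4. At day 10 it was 9.22, 8.98 and 10.06 in replicates 1, 2 and 3, above all arrays before IL-5, where Slc7a7 was not. The 10 neutrophil markers averaged 9.69 to 9.88 before IL-5, 10.55 to 10.58 at day 4, and 8.69 to 9.51 at day 10. At day 4, 4 of them rose and 6 were not called. Of those 6, Ctsg, Elane, Prtn3 and Mpo differed by -0.92, -0.40, -0.26 and -0.08, and Cxcr2 and Retnlg by 0.80 and 0.40. At day 10 against before IL-5, 4 neutrophil markers rose and 4 fell. The 9 dendritic cell markers averaged 6.92 to 7.01 before IL-5, 8.46 to 8.59 at day 4 and 5.98 to 5.99 at day 10. Within day 10, replicate 3 was the highest for the mean of the macrophage markers, for that of the neutrophil markers and for Slc7a7. Not every marker shared this: Ly6g (12.85, 12.95 and 12.73) and Adgre1 (12.20, 12.07 and 12.06) were lowest there. Between the days 7 of 9 dendritic cell, 6 of 10 neutrophil and 2 of 10 macrophage markers fell. In the same order, 0, 2 and 1 rose. None of these markers had a mean under the lower quartile of all genes. Their part in the Slc7a7 values was not tested. Slc38a6 (7.15, 6.82 and 7.64 at day 10), an SLC38 member of less known substrate, and the serotonin transporter gene Slc6a4 (6.53, 6.53 and 7.28) were also highest in day 10 replicate 3. Both were picked out after their values were seen, and neither was called in any comparison.

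**Figure D2:**
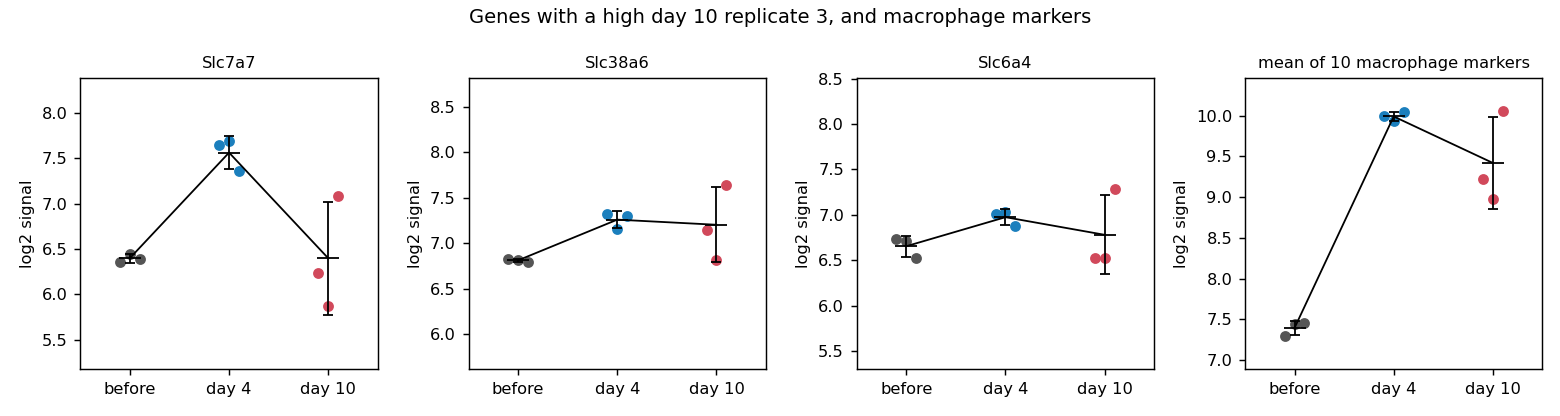
Log2 signal per array of Slc7a7, Slc38a6 and Slc6a4 and the mean of 10 monocyte and macrophage markers, by time of IL-5; points are arrays, bars the mean with SD (n = 3), and each panel has its own scale. Day 10 replicate 3, the rightmost point of its group, is the highest of its group in every panel, at 7.08 for Slc7a7 and 10.06 for the markers. Slc38a6 and Slc6a4 were picked for this pattern after their values were seen, and the members that share it were not counted.

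Slc7a11, the light chain for cystine and glutamate that also pairs with Slc3a2, is outside the 59 and is given for comparison. It stood at 5.55, 5.94 and 5.53 before IL-5, 8.80, 8.30 and 8.64 at day 4, and 11.59, 11.47 and 11.34 at day 10. Its change at day 10 against before IL-5, 5.79, was larger than that of any of the 59, which ran from -2.28 to 2.77. Among the remaining light chains, Slc7a9 (b0,+AT, the rBAT partner), Slc7a10 (Asc-1), Slc7a12, Slc7a13 and Slc7a15 were not called in any comparison. The largest difference among these 5 was 0.33 for Slc7a9 at day 10 (adjusted p = 0.0605). Of the 9 light chains, 2 rose and 0 fell at day 4, where 3.42% and 2.11% of all genes did, and 1 rose and 2 fell at day 10, against 4.83% and 9.40%.

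**Figure D3:**
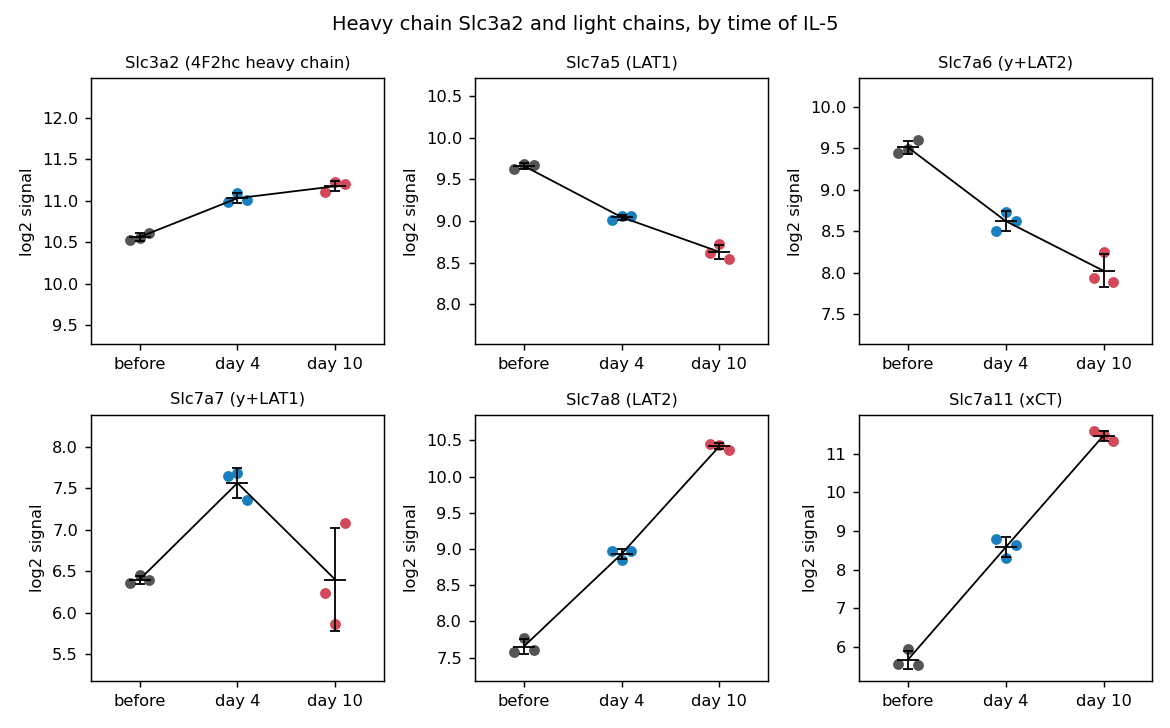
Log2 signal per array of the heavy chain gene Slc3a2 and of 5 of its light chain partners, by time of IL-5; points are arrays, bars the mean with SD (n = 3), and panels have their own scales. Slc7a8 and Slc7a11 climb at each step, Slc7a5 and Slc7a6 descend, and Slc7a7 is highest at day 4.

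Among the cationic carriers, which bring in arginine and lysine without a heavy chain, only Slc7a1 of 5 genes was called. Slc7a1 encodes CAT1, the widespread arginine and lysine carrier. It gave 8.64, 8.77 and 8.70 before IL-5, 7.84, 7.86 and 7.72 at day 4, and 7.58, 7.61 and 7.51 at day 10. Most of the difference was there at day 4, at -0.90 ± 0.09 (SE, adjusted p = 1.1e-05, under 2-fold), and the fall at day 10 was -1.14 ± 0.09 (adjusted p = 4.08e-07). After quantile normalization that value was -0.99 and not called. Slc7a2, the inducible carrier CAT2 of activated macrophages, lay between 5.00 and 5.35 in all arrays, with -0.12 at day 10 (adjusted p = 0.401). Slc7a14, an orphan of this branch, had the largest difference of the other 4 cationic carriers, 0.50 between the days (adjusted p = 0.024).

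Of the SLC1 family, Slc1a5 alone of 7 genes was called. It encodes ASCT2, which brings glutamine into dividing cells in exchange for other neutral amino acids. Its arrays were 9.73, 9.44 and 9.63 before IL-5, 8.89, 8.90 and 8.86 at day 4, and 8.40, 8.46 and 8.39 at day 10, with no overlap between groups. It fell by 1.18 ± 0.10 (SE) by day 10 (adjusted p = 5.09e-07), after -0.71 at day 4 (adjusted p = 1.18e-04, under 2-fold). Slc1a4, the related ASCT1 carrier of alanine, serine and cysteine, showed -0.83 ± 0.13 at day 10 (adjusted p = 1.35e-04), which did not reach 2-fold. The glutamate transporter genes Slc1a1, Slc1a2, Slc1a3, Slc1a6 and Slc1a7, best known from neurons and glia, had differences between -0.38 and 0.22 over the 3 comparisons.

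The largest fall of the family at day 4 was in Slc38a5, which encodes SNAT5, a sodium-coupled carrier of glutamine, histidine and other neutral amino acids. The signals before IL-5, 7.27, 7.28 and 7.15, dropped to 4.79, 4.71 and 4.96 at day 4 and read 5.49, 5.19 and 5.57 at day 10. The later arrays all lay below those before IL-5, and day 10 lay above day 4. The fall was -2.42 ± 0.12 (SE) at day 4 (adjusted p = 2.12e-08), a 5.34-fold lower signal, and -1.82 ± 0.12 at day 10 (adjusted p = 5.27e-08). The difference between the days was 0.60 ± 0.12 (adjusted p = 0.00164), under 2-fold. The day 4 arrays lay close to the lower quartile of all genes, 4.66, where the array summary compresses changes. The sizes of the fall and of the difference between the days are therefore uncertain.

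No other SLC38 gene of 11 was called. Slc38a1 and Slc38a2, the widely expressed glutamine and alanine carriers SNAT1 and SNAT2, stood lower at day 10 by -0.72 ± 0.11 (SE, adjusted p = 7.42e-05) and -0.62 ± 0.10 (adjusted p = 1.59e-04). For both genes the 3 day 10 arrays lay below all others. The second probe set of Slc38a1 gave -0.83 at day 10. Slc38a9, the lysosomal arginine sensor of mTORC1, stayed between 8.40 and 8.67, with -0.11 at day 10 (adjusted p = 0.376), and its second probe set also gave -0.11.

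The SLC43 family split. Slc43a1 encodes LAT3, a uniporter for leucine and other large neutral amino acids. It went from 7.67, 8.04 and 7.75 before IL-5 to 6.10, 6.22 and 5.93 at day 4 and 5.64, 5.64 and 5.34 at day 10. The groups did not overlap, and most of the drop lay before day 4. It fell by 1.74 ± 0.13 (SE) at day 4 (adjusted p = 7.04e-07) and the change at day 10 was -2.28 ± 0.13 (adjusted p = 1.75e-08), a 4.85-fold lower signal.

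Slc43a2, which encodes LAT4, a uniporter for the same kind of substrate, rose. Its arrays gave 8.38, 8.50 and 8.42 before IL-5, 9.25, 9.06 and 9.06 at day 4, and 9.55, 9.37 and 9.67 at day 10. The rise at day 10 was 2.14-fold, with a log2 change of 1.10 ± 0.11 (SE, adjusted p = 2e-06), after 0.69 at day 4 (adjusted p = 2.84e-04, under 2-fold). Slc43a3, the third gene, which encodes a purine base carrier, showed -0.97 ± 0.10 at day 10 (adjusted p = 2.15e-06), just under the limit. It passed without replicate 2 before IL-5, and at -1.02 without day 10 replicate 2.

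Erythroid markers dropped over the same interval as Slc38a5 and Slc43a1. Of the 9 erythroid markers measured, 7 fell and 0 rose at day 4, and 8 fell and 0 rose at day 10. Their mean level per array was 8.14 to 8.16 before IL-5, 5.87 to 6.04 at day 4 and 5.74 to 5.82 at day 10. B cell markers ran from 8.04 to 8.14 before IL-5, from 5.91 to 6.07 at day 4 and from 5.29 to 5.38 at day 10. Progenitor markers ran from 8.68 to 8.70, from 7.60 to 7.75 and from 6.57 to 6.63 at the same times. Mast cell and basophil markers ran from 8.37 to 8.44, from 8.30 to 8.40 and from 6.90 to 7.26. None of the markers in these lists had a mean under the lower quartile of all genes. Their part in the falls of Slc38a5 and Slc43a1 was not tested.

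In the SLC36 family of proton-coupled carriers, known from lysosomes and endosomes and linked to mTORC1, Slc36a1 and Slc36a4 stood higher at day 10 and Slc36a2 and Slc36a3 did not. Slc36a4, which encodes PAT4, a carrier of proline and tryptophan, gave 7.98, 8.11 and 8.19 before IL-5, 8.64, 8.62 and 8.47 at day 4, and 9.32, 9.30 and 9.40 at day 10. It rose by 1.25 ± 0.10 (SE) by day 10 (adjusted p = 2.86e-07), with 0.49 at day 4 (adjusted p = 0.00197, under 2-fold). Slc36a1, the lysosomal carrier PAT1, differed by 0.76 ± 0.11 at day 10 (adjusted p = 6.11e-05), under 2-fold, and its day 10 arrays (8.74, 8.65 and 8.46) lay above all others. Slc36a2 and Slc36a3 lay between 4.74 and 5.44 in all arrays and were not called.

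The SLC6 family holds transporters of amino acids, monoamines and osmolytes, most of them known from brain, gut and kidney. The taurine transporter gene Slc6a6 alone of its 18 measured genes was called. Taurine is abundant in granulocytes, where it reacts with the hypohalous acids made by their peroxidases. Slc6a6 read 9.42, 9.57 and 9.66 before IL-5, 10.53, 10.72 and 10.60 at day 4, and 11.34, 11.14 and 11.26 at day 10, with no overlap between groups. It rose by 1.07 ± 0.10 (SE) at day 4 (adjusted p = 6.72e-06) and by 1.70 ± 0.10 at day 10 (adjusted p = 3.37e-08), a 3.24-fold higher signal.

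Slc6a9, the glycine transporter GLYT1, differed late. It stood at 6.53, 6.52 and 6.66 before IL-5, 6.63, 6.54 and 6.24 at day 4, and 7.44, 7.26 and 7.47 at day 10. Day 10 was above both earlier groups, which overlapped. The difference was 0.82 ± 0.12 (SE) against before IL-5 (adjusted p = 6.61e-05) and 0.92 ± 0.12 against day 4 (adjusted p = 5.5e-05). Neither reached 2-fold, but the latter was 1.04 after quantile normalization and then passed. The betaine and GABA transporter gene Slc6a12 was highest at day 4 (6.46, 6.59 and 6.31), 0.57 above before IL-5 (adjusted p = 0.00189) and 0.82 above day 10 (adjusted p = 1.22e-04). Slc6a8, the creatine transporter, stood 0.53 higher at day 10 (adjusted p = 0.00615). Of the remaining SLC6 members, Slc6a21 was in no role list, had a mean below the lower quartile, and showed -0.33 at day 4 (adjusted p = 0.0502).

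**Figure D4:**
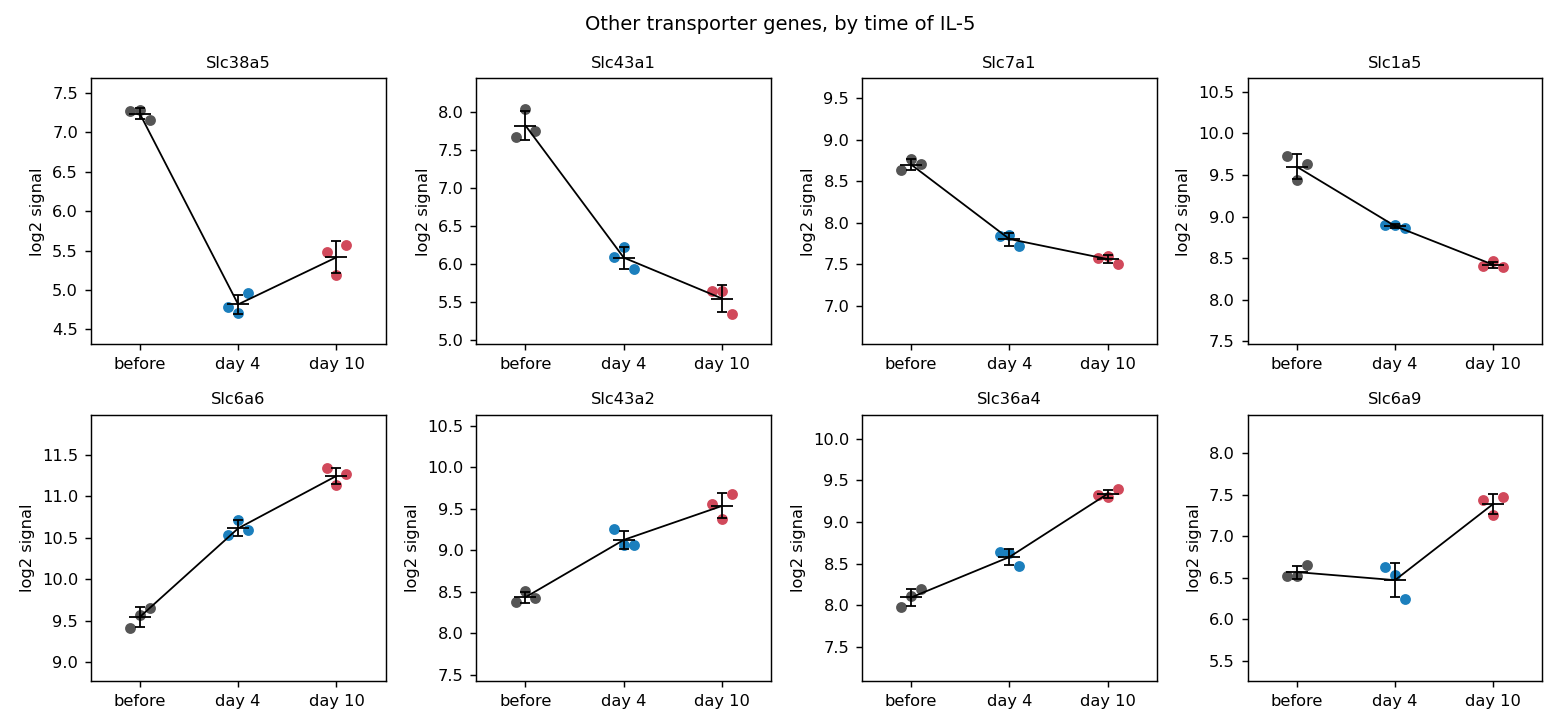
Log2 signal per array of 8 further transporter genes, by time of IL-5; points are arrays, bars the mean with SD (n = 3), and each panel has its own scale. The upper row (Slc38a5, Slc43a1, Slc7a1 and Slc1a5) is highest before IL-5, and the lower row (Slc6a6, Slc43a2, Slc36a4 and Slc6a9) is highest at day 10.

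By time course, 4 genes were called at both days against before IL-5: Slc7a8 and Slc6a6 rose, and Slc38a5 and Slc43a1 fell. Another 6 were called at day 10 only, of which Slc43a2 and Slc36a4 rose and Slc7a5, Slc7a6, Slc7a1 and Slc1a5 fell. All 6 already had an adjusted p under 0.05 at day 4 in the same direction, with sizes from 0.49 to 0.90. Slc7a7 was the 1 gene called at day 4 only. This split was not counted over all genes, and nothing particular to the family is read from it. Both comparisons share the arrays before IL-5.

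Amino acid shortage is sensed by the kinase GCN2 (gene Eif2ak4), which acts through the transcription factor ATF4 on transporter and amino acid synthesis genes. Of 25 measured genes of this response, 1 rose and 1 fell at day 4 (3.42% and 2.11% of all genes did), and 3 rose and 4 fell at day 10 (4.83% and 9.40% of all genes). The median change at day 10 was -0.06, beside -0.07 for all genes. Atf4 itself differed by 0.17 at day 10 (adjusted p = 0.197) and Eif2ak4 by 0.03 (adjusted p = 0.843). The 4 that fell at day 10 encode enzymes of amino acid synthesis: Shmt2 for glycine (-1.99), Phgdh (-1.34) and Psat1 (-1.14) for serine, and Asns for asparagine (-1.29). The 3 that rose were the leucine sensor and mTORC1 inhibitor Sesn2 (1.33), the C/EBP factor Cebpb (1.31) and the mTORC1 inhibitor Ddit4 (1.28). At day 4 the stress factor Atf3 rose by 2.37, and Shmt2 fell by 1.20.

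Another list held genes through which amino acids reach mTORC1. Of 36 measured, 2 rose and 1 fell at day 4, and 2 rose and 3 fell at day 10, with a median change of -0.09 at day 10. These counts, with the 2-fold limit, lie near the shares of all genes, 3.42% and 2.11% at day 4 and 4.83% and 9.40% at day 10. On adjusted p alone, 8 of the 36 stood higher and 8 lower at day 4, against 11.5% and 20.0% of all genes. At day 10 these were 7 and 16 of the 36, against 14.8% and 27.6%. Rragb, a RAG GTPase that docks mTORC1 on the lysosome, fell by 1.12 at day 4 and 2.17 at day 10. Mios, of the GATOR2 complex, had -1.21 at day 10 and fell, and the leucyl-tRNA synthetase gene Lars had -1.06. Sesn2 also belongs to this list. The folliculin partner Fnip2 (1.25) and Castor2 (1.03), a relative of an arginine sensor, rose at day 4, and Fnip1 (1.06) at day 10. Mtor differed by -0.63 at day 10 (adjusted p = 2.56e-04), under 2-fold.

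Other carriers of amino acids and peptides, outside the 59, numbered 18. At day 10, 1 rose, which was Slc7a11 at 5.79, and 4 fell, beside 4.83% and 9.40% of all genes. They were the mitochondrial aspartate and glutamate carriers Slc25a13 (-2.65) and Slc25a12 (-1.14), the aromatic amino acid carrier Slc16a10 (-1.43) and the mitochondrial ornithine carrier Slc25a15 (2.01-fold lower). At day 4 the lysosomal histidine and peptide carrier Slc15a3 rose by 1.79 besides Slc7a11, and Slc25a13 fell by 1.52, beside 3.42% rising and 2.11% falling among all genes.

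The amino acid response element that ATF4 binds has the core letters TGATGNAA. These letters were searched on both strands in RefSeq promoter windows of GRCm38.p6, from 250 bases before to 50 after the annotated start. Windows were found for 42 of the 59 genes, 63 windows in all, and for 8 of the 11 called genes. The letters stood in 4 of the 63 windows (6.35%), of 3 genes, against 3.97% of all 32851 windows. The 3 genes were Slc7a7, which was highest at day 4, Slc1a4, which stood lower at day 10, and the dim Slc6a21. The stretches of the first 2 genes are shown because they hold these letters within a few bases of the start, with matches in capitals. Slc7a7 lies at chr14:54417920-54418094 and Slc1a4 at chr11:20332689-20332813, both on the minus strand, and each stretch ends 25 bases after the start.
Slc7a7: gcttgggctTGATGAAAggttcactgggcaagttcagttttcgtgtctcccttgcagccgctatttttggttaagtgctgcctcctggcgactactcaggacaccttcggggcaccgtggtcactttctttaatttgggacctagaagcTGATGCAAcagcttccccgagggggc
Slc1a4: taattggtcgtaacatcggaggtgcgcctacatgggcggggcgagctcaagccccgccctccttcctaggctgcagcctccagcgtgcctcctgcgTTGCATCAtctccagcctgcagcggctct
In the Slc7a7 stretch the matches begin 141 bases and 1 base before the start, on the gene's strand. In the Slc1a4 stretch the match begins 4 bases before it, on the opposite strand. Slc7a7 has 5 windows in the table, and an overlapping one holds the match nearest the start again, so that the 4 windows with a match include 1 site counted 2 times. A match is a description of the letters and not of binding.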

How the data were processed

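Affymetrix mouse gene arrays measured total RNA in 9 samples. The deposited values are log2 signals per probe set. Per the submitters' processing notes the authors used Affymetrix Expression Console 1.1.2637.26569, and the sample descriptions, per the labels, name its default gene-level RMA summary. Its settings, annotation release and genome build are not stated in the sources used here. RMA understates changes of dim genes and makes the arrays' distributions alike, and the files hold no detection calls.

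The 35557 probe sets comprised 21789 with 1 gene symbol, which were used, 1621 with several symbols and 12147 that the annotation used here leaves unnamed. For the 999 genes with several probe sets the one with the highest mean was kept, which left 19938 genes, and checking symbols through Entrez identifiers updated 0. For the members, 0 probe sets named several genes, and 2 members had a second probe set. Sample titles gave the groups and replicate numbers. The sample descriptions number the arrays otherwise (1, 2 and 4 before IL-5, and 4, 5 and 6 at day 10), and replicate numbers here are those of the titles. limma 3.58.1 in R 4.3.3 (lmFit, eBayes) fitted 3 group means over 9 arrays, with 6 residual and 6.47 prior degrees of freedom. Two-sided p-values were adjusted by Benjamini-Hochberg over all genes. The number of arrays limits precision. On simulated arrays of 19938 genes with independent normal noise, 100 genes were planted at 1.5 on the log2 scale for day 4 against before IL-5. The fit found 96% of them, with 0 false calls. No smaller change was planted, so the simulation does not bear on calls nearer the 2-fold limit. Far fewer genes changed in it than in these data, so its 0 false calls do not carry over to them.

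The members and lists were chosen with earlier results of these data known. Named were all called members, the uncalled member of each role list with the largest difference, partners of called chains, members with a second probe set, and up to 4 called genes of each further list. A few more genes were named for their role or to complete a count, after their values were seen. Alternatives were quantile normalization, subtraction of array medians, leaving out dim genes, the mean of a gene's probe sets, another variance model, fitting only the groups compared, the replicate number as a block, adjusted p alone, and leaving out each array.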

Additional observations from a re-analysis of the deposited data

How the results depend on the processing

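For 19 members, the 3 changes each were recomputed under 16 alternatives. Of the 912 values 900 kept their direction and their side of the threshold, 4 lost the call, 3 gained it and 5 changed sign. The 5 were differences near 0 that were not called either way. Many of the 912 could not move in size. Leaving out dim genes, another variance model, fitting only the groups compared and the replicate block keep the difference of group means. So do leaving out an array of the third group, and the probe set mean for a gene with only 1. There only the adjusted p could change, so the 900 does not measure stability. Slc7a7 at day 10 against before IL-5 was 0.070 with quantile normalization and ran from -0.344 to 0.263 without 1 array, above 0 without replicate 2 before IL-5, day 10 replicate 1 or day 10 replicate 2. Slc6a9 at day 4 against before IL-5 ran from -0.178 to 0.0174, above 0 without day 4 replicate 3. The cause was not tested. With quantile normalization, 4 members fell at day 10 against before IL-5 in place of 6, without Slc7a5 and Slc7a1, and 2 rose between the days in place of 1, with Slc6a9 added. The cause was not tested. Leaving out 1 array gave 5 to 7 falling members at day 10 against before IL-5 and 0 to 1 between the days, where Slc7a7 was lost without day 10 replicate 2. The counts at day 4 were 3 rising and 2 falling without any 1 array. With adjusted p alone and no fold limit, which by construction calls more genes, 7 members rose and 9 fell at day 4, 9 and 13 at day 10 against before IL-5, and 10 and 9 between the days. Over all genes these counts were 2295 and 3984, 2941 and 5499, and 2336 and 4028. Subtracting array medians left the median change of all genes at -0.10 at day 4, beside -0.11, and quantile normalization at -0.05. At day 10 against before IL-5, quantile normalization gave 1523 falling and 1114 rising genes over all genes, in place of 1875 and 964. Arrays with the same replicate number in the titles did not deviate together, with correlations from -0.119 to 0.0773 over 9 pairs, and in 1 of 18 cases an array's best match in another group carried its number. With the replicate block, 3 members rose and 2 fell at day 4, 4 rose and 6 fell at day 10, and 1 rose and 1 fell between the days, the counts of the fit without it. Signals near the lower quartile of all genes limit what can be seen in the 15 dim members, since the array summary compresses changes there.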

Other observations

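Some members are neighbours in the genome. In the GRCm38.p6 gene table, 7 pairs of members had no other protein-coding gene starting between them. On chromosome 15, Slc38a1 and Slc38a2 differed by -0.72 and -0.62 at day 10 against before IL-5, and the next gene, Slc38a4, a dim member, by -0.25. On chromosome 11, Slc36a1 differed by 0.76 at day 10, and its neighbour Slc36a2 by -0.15. On chromosome 6, Slc6a12 lay 0.82 lower at day 10 than at day 4, and its neighbour Slc6a13, a GABA transporter gene, differed by 0.16.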
